A study of Mus musculus with 6 samples.

Results

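H3K9ac at CpG islands was measured in mouse lung endothelial cells by CUT&RUN, in which a nuclease releases the DNA under an antibody-bound protein for sequencing. CpG island peaks are the rows of the deposited peak table whose detailed annotation names a CpG island, and they number 1622 of 17901 peaks (9.06%). In the authors' coarse annotation all 1622 are centred in an intron (1487 peaks, 91.7%) or between genes (135 peaks, 8.32%). None is a promoter-TSS, exon or UTR peak, so the label leaves out islands whose peaks are centred there. The comparison set 3 CSE-KO libraries, from Cre-positive CSE-KO mice, against 3 WT libraries, from Cre-negative WT mice, to ask how loss of CSE alters this mark at endothelial loci. CSE is cystathionine gamma-lyase, the enzyme that makes cysteine from cystathionine and is encoded by Cth. Neither the driver of Cre, the allele it acts on nor the age of the mice is stated in the labels. They also leave out whether each library is 1 animal, and a p-value here reflects library-to-library spread, which may be technical.

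A CpG island is a stretch of DNA rich in G, C and the dinucleotide CpG that usually lacks DNA methylation. Islands lie at the starts of most genes used in every cell and of many developmental regulators, and few lie at the starts of genes used in a single cell type. H3K9ac is placed by acetyltransferases that use acetyl-CoA and is removed by histone deacetylases. It marks the nucleosomes around active starts, with most of the signal on the transcribed side.

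The promoters of 7 genes are shown to let the letters of the class be seen. Ppp2ca, the catalytic subunit of protein phosphatase 2A, and Psmd1, a subunit of the proteasome's regulatory particle, had the highest read densities among CpG island peaks at least 500 bp wide. Klf2 is a flow-responsive endothelial transcription factor, and Slc16a1 is a carrier of lactate and pyruvate. Abi1, an actin regulator of the WAVE complex, and Pacs2, a sorting protein of the contacts between endoplasmic reticulum and mitochondria, had the smallest unadjusted p in each direction by the naming rule. Egfl7, a secreted endothelial protein, is the contrast: its peak lies near its start but outside the CpG island class. Each line runs 5′ to 3′ on the gene's strand from 250 bases before to 50 after the start, from RefSeq on GRCm38.p6, and capitals mark every CG dinucleotide.
Ppp2ca: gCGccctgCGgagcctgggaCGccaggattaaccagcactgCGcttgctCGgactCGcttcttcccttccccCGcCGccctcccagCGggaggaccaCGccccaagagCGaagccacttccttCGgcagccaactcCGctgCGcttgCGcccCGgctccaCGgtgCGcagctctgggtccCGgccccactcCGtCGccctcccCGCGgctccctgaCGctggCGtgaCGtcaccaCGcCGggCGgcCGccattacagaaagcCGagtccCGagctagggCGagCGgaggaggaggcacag
Psmd1: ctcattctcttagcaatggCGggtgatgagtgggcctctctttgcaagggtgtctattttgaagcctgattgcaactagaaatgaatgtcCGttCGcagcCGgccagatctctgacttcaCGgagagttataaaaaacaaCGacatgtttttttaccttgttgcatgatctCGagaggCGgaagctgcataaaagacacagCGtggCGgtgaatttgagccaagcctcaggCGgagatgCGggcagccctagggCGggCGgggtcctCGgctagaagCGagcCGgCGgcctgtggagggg
Klf2: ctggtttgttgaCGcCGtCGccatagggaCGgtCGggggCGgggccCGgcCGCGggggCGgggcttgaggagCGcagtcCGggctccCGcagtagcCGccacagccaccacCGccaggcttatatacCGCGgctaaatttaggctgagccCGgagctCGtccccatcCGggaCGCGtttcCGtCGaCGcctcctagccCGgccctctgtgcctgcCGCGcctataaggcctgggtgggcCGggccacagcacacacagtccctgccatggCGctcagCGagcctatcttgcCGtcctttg
Slc16a1: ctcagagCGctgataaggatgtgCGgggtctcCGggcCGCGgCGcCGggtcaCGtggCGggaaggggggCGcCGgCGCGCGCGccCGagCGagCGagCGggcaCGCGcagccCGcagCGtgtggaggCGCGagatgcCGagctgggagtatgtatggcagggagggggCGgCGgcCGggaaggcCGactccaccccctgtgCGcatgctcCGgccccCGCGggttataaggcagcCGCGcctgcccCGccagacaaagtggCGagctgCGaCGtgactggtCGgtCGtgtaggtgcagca
Abi1: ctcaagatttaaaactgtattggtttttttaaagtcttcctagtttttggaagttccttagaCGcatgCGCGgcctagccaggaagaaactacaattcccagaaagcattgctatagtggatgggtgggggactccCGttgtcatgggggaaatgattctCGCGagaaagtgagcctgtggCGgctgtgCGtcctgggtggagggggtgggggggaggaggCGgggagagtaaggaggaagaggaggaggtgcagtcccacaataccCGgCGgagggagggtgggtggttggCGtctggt
Pacs2: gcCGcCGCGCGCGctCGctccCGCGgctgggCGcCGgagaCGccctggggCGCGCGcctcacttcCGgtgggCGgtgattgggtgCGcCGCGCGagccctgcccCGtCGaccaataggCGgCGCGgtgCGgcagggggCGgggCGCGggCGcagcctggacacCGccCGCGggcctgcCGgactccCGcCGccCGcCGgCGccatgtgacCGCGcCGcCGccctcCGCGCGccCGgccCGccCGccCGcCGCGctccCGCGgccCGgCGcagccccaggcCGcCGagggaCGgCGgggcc
Egfl7: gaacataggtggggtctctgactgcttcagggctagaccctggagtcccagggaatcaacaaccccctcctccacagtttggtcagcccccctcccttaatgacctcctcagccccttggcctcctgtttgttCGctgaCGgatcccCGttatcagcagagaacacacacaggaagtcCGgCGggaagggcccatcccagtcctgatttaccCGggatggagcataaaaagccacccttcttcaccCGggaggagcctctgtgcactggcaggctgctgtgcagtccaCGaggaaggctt

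The Ppp2ca window (chr11:52098574-52098873, plus strand) holds 34 CG dinucleotides, and its CpG observed over expected ratio, the count set against what its C and G content gives, is 0.904. The Psmd1 window (chr1:86064369-86064668, plus strand) holds 18 CG, the Klf2 window (chr8:72318812-72319111, plus strand) 32 and the Slc16a1 window (chr3:104638414-104638713, plus strand) 42. The Pacs2 window (chr12:113014258-113014557, plus strand) is the richest of the 7, with 60 CG and 85.7% G and C. The Abi1 window (chr2:23040147-23040446, minus strand) holds 12 CG with a ratio of 0.626. The Egfl7 window (chr2:26583615-26583914, plus strand) holds 8 CG with a ratio of 0.311, the lowest of the 7. The Ppp2ca window also holds the CREB/ATF letters TGACGTC, and the Abi1 and Slc16a1 windows hold the NRF1 letters CATGCGC on one of their strands.

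The counts over all peaks were 1173016, 679938 and 685131 in CSE-KO libraries 1 to 3 and 676056, 313610 and 610922 in WT libraries 1 to 3, so the shallowest CSE-KO library held more counts than the deepest WT library. The median CpG island peak held 72, 41 and 42 counts in the CSE-KO libraries and 41, 19 and 37.5 counts in the WT libraries. Cth has 0 rows in the table, so the targeted gene does not check the labels. All 12 endothelial marker genes had peaks, and their counts summed to 2352 to 2746 CPM (counts relative to the scaled library total) in CSE-KO and 2559 to 2795 CPM in WT libraries. Of 12 epithelial markers Cdh1, Epcam, Krt8, Krt18 and the club cell marker Scgb1a1 had peaks, 10 in all (290 to 332 CPM in CSE-KO, 320 to 350 CPM in WT), and Cldn18, Elf3, Sftpb, Sftpc, Sftpd, Nkx2-1 and Foxj1 had none. Of 12 haematopoietic markers Csf1r alone had a peak (21.2 to 23.4 CPM in CSE-KO, 16.3 to 38.8 CPM in WT), as did Col1a1 alone of 12 fibroblast and mural markers (21.9 to 50.8 CPM in CSE-KO, 32.3 to 46.0 CPM in WT). None of these marker peaks was a CpG island peak. Fewer modified cells and less modification per cell cannot be told apart in such bulk libraries.

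Most CpG island peaks were centred in a first intron. Their centres lay a median of 415 bp from the nearest deposited transcription start (quartiles 282 and 629 bp), and 1503 of them (92.7%) lay on the transcribed side. The first intron held 1403 of the 1487 intronic peaks (94.4%), the second held 62 and later introns held 22. Of all 1622 peaks, 158 lay within 200 bp of the start, 855 between 200 and 500 bp, 373 between 500 and 1000 bp and 97 between 1 and 5 kb. Another 107 lay between 5 and 50 kb and 32 lay more than 50 kb away. No centre lay within 1 kb upstream of a start or nearer than 103 bp downstream, where peaks carry other labels, so near a start the annotation leaves the transcribed side alone to the class and its share there is no result.

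**Figure D1:**
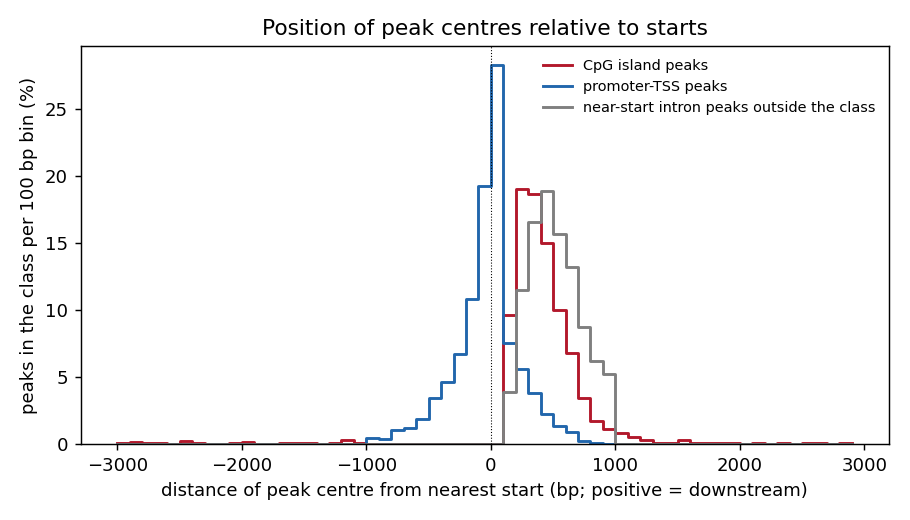
Share of each class of peaks, in percent per 100 bp bin (vertical axis), by the signed distance in bp of the peak centre from the nearest deposited start (horizontal axis, positive is downstream). CpG island peaks (red) crest in the bins from 200 to 400 bp downstream with 19.1% and 18.7% of peaks, while promoter-TSS peaks (blue) centre on the start and other near-start intron peaks (grey) crest at 400 to 500 bp with 18.9%. All 3 classes are bounded by the annotation or by the 1 kb limit: the CpG island class has no peak from 1 kb upstream to 103 bp downstream.

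Many of these peaks were broad enough to span the start although their centre lay beyond it. Counting a start as covered where the width on each side of the centre reached it, 979 CpG island peaks (60.4%) covered their start, against 87.9% of promoter-TSS peaks and 47.4% of the 2087 other intron peaks centred within 1 kb of a start. In the RefSeq promoter table, 842 of the 1584 peaks that could be placed (53.2%) held at least 1 start, against 76.5% of promoter-TSS and 41.5% of near-start intron peaks. Starts on both strands lay in 6.89% of CpG island peaks that held a start, against 35.3% of such promoter-TSS peaks and 5.34% of such near-start intron peaks. The promoter table is not complete, so the shares of peaks that hold a start are lower bounds. Peaks centred at or just upstream of a start carry other labels, so the annotation bounds these comparisons with promoter-TSS peaks.

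CpG island peaks had a median width of 1058.5 bp (quartiles 726.5 and 1419.8 bp, range 238 to 3282 bp). Promoter-TSS peaks had 1119 bp, near-start intron peaks 1023 bp, and all peaks outside the class 793 bp. Peaks that covered their start had a median width of 1232 bp and those that did not 794 bp. Covering is counted from the width itself, so the direction of this difference is no result. Intronic CpG island peaks (1084 bp) were wider than intergenic ones (817 bp). A width of 2 kb or more was found in 85 CpG island peaks (5.24%).

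The level of the mark was read as read density, the CPM of a peak per kb of its width, averaged over the 6 libraries. The median was 58.2 CPM per kb for CpG island peaks (range 29.9 to 241), 59.1 for promoter-TSS peaks, 60.1 for near-start intron peaks and 51.2 for all peaks outside the class. The median CpG island peak was thus 1.14 times as dense as the median peak outside the class, and close to those of the other start-near classes. Density was higher in wider peaks, with a median of 48.2 CPM per kb in the narrowest 406 CpG island peaks and 68.6 in the widest 406 (Spearman's rho 0.31 across 1622 peaks, a description, since all values share libraries and peak borders). Peaks that covered a start had 62.6 CPM per kb and the others 52.6. Covering is counted from the width, and the part of width in this gap was not tested. By distance the median was 54.9 CPM per kb within 200 bp, 63.5 from 500 to 1000 bp and 47.7 from 5 to 50 kb. The deposited table holds no peak whose RPKM values sum to under 167, so weaker islands are not analysed here.

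The peaks with the highest density and a width of at least 500 bp were those of Ppp2ca, Psmd1, Vcp, Ino80, Cwc22 and Xbp1. The Ppp2ca peak (chr11:52098835-52099781, first intron) had 202.3, 193 and 241.9 CPM in CSE-KO libraries 1 to 3 and 232.8, 294.1 and 207.3 CPM in WT libraries 1 to 3, and a density of 241 CPM per kb. The groups overlapped, and the log2 fold change of CSE-KO over WT was -0.18 (standard error, SE, 0.15). The Psmd1 peak (chr1:86064386-86065748, first intron) followed at 228 CPM per kb, with 363, 270.5 and 273.7 CPM in CSE-KO and 323.3, 345.8 and 288 CPM in WT libraries. Its groups overlapped too (log2 fold change -0.05, SE 0.14). Vcp, an ATPase that pulls ubiquitin-tagged proteins out of complexes, had 199 CPM per kb, and Ino80, the ATPase of a nucleosome remodeller, had 198. Cwc22, a splicing factor, had 192 CPM per kb, and Xbp1, a transcription factor of the unfolded protein response, had 188. The log2 fold changes of these 4 lay between -0.19 and 0.10, each with an SE of 0.14 to 0.16.

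The 4 widest CpG island peaks lay at Ddx3x, Kdm6b, Clcf1 and Hnrnpu. The Ddx3x peak, at an X-linked RNA helicase, spanned 3282 bp, and the Kdm6b peak, at a histone demethylase, spanned 3210 bp with its centre 5779 bp into the gene. Clcf1, which encodes a cytokine of the ciliary neurotrophic factor family, had a peak of 2926 bp, and Hnrnpu, a nuclear RNA-binding scaffold protein, one of 2810 bp. Their densities were 54.7, 82.2, 85.0 and 82.4 CPM per kb in that order, so the widest peak was not among the densest. The Kdm6b peak had 247.9, 286.5 and 259.2 CPM in CSE-KO and 221, 281.1 and 288 CPM in WT libraries, with overlapping groups (log2 fold change 0.01, SE 0.14).

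CpG island peaks were named for 1594 genes, 14.2% of the 11191 genes with any peak, and 975 of these genes had no peak of another kind. RefSeq lists 1590 of them, of which 1553 code for protein, 22 are lncRNAs, 10 are miRNAs and 5 are transcribed pseudogenes. Arid1b and Ptma had 3 CpG island peaks each, the most of any gene. By list, 14 of 78 cytosolic ribosomal protein genes, 13 of 48 respiratory chain and TCA cycle genes and 11 of 37 splicing genes had a CpG island peak, against 3 of 29 endothelial identity genes and 1 of 57 homeobox and other developmental regulators. Of those lists 60, 40, 34, 28 and 17 genes had a peak of any kind. Of 32 proteasome genes, 28 had a peak of any kind and 2 a CpG island peak. Ribosomal protein genes had a median density of 90.4 CPM per kb, with Rps6 (138), Rpl31 (129) and Rps13 (121) above the rest. Their 14 peaks were centred 151 to 750 bp downstream of the start. The annotation leaves only the transcribed side to the class at such distances, so the side is no result. Splicing genes had 75.8 CPM per kb and respiratory chain and TCA cycle genes 69.1, both above the 58.2 of all CpG island peaks. The proteasome list lay above 58.2 too, on 2 peaks alone. A median above 58.2 was not confined to such upkeep lists. The 6 NRF2 and glutathione genes had 79.5 CPM per kb, and the endothelial identity list also lay above 58.2, on 3 peaks. The 6 acetyl-CoA supply genes had 49.4 and the 5 histone acetylation genes 55.8. The lists of sulfide metabolism, amino acid shortage and developmental regulators lay below 58.2 too, on 1, 2 and 1 peaks.

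The 3 endothelial identity genes in the class were Fli1, Klf2 and Klf4. Fli1, an ETS transcription factor of endothelial and blood development, had a peak of 2331 bp (chr9:32539893-32542223) in its first intron that reached the start. It held 314.8, 299.7 and 272.3 CPM in CSE-KO and 283.2, 355.5 and 258.4 CPM in WT libraries. The WT values enclosed those of CSE-KO (log2 fold change 0.01, SE 0.14). The Klf2 peak (chr8:72318950-72319546) was small, with 31.3, 30.7 and 53.6 CPM in CSE-KO and 44.5, 25.9 and 32.9 CPM in WT libraries (log2 fold change 0.09, SE 0.34). The peak named for Klf4, a relative of Klf2, lies between genes 119251 bp upstream of its start (chr4:55651276-55652177). It had 71.9, 83.3 and 63.7 CPM in CSE-KO and 72.7, 42.0 and 72.4 CPM in WT libraries, with overlapping groups (log2 fold change 0.16, SE 0.25). Outside the class, 12 endothelial identity genes had a promoter-TSS or near-start intron peak, and Klf4 is also one of these, with a promoter-TSS peak at its own start. RefSeq windows were at hand for 6 of the 12, with CpG observed over expected from 0.149 at Tek to 0.974 at Klf4, and under 0.6 in 4, Egfl7 among them.

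The promoters behind CpG island peaks were rich in CpG, which is near to what the annotation selects and is given as a description. Windows were found for 1121 of the 1383 genes with such a peak within 1 kb of a start (81.1%). Their median G and C content was 63.3%, against 62.7% for genes with a promoter-TSS peak, 59.7% for those with a near-start intron peak and 52.7% for all 32851 windows. Median CpG observed over expected was 0.835, against 0.827, 0.752 and 0.384 in the same order. A ratio of at least 0.6 with at least 50% G and C was met by 958 of the 1121 windows (85.5%), by 80.2% of promoter-TSS windows, by 67.5% of near-start intron windows and by 33.5% of all windows. Promoter-TSS genes thus carried nearly as much CpG as genes of the class.

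The letters of promoter factors in these windows are given as shares with no test. On either strand, the Sp/KLF letters GGGCGG were in 74.0% of windows of the class, against 69.3% of promoter-TSS, 66.3% of near-start intron and 35.7% of all windows. The NRF1 letters CATGCGC were in 10.3%, against 7.12%, 7.42% and 3.91% in the same order, and the YY1 letters ATGGCGG in 11.7%, against 9.82%, 8.45% and 4.05%. NRF1 and YY1 are factors of mitochondrial and other upkeep genes. The ETS letters CCGGAA were in 27.5% of windows of the class, against 35.3% of promoter-TSS, 33.1% of near-start intron and 14.9% of all windows. The AP-1 letters TGANTCA were in 2.14%, against 4.03%, 5.37% and 7.81%. The GATA letters AGATAA were in 4.73%, against 4.42%, 6.82% and 11.2%, and the TATA letters TATAAA in 6.16%, against 4.80%, 5.79% and 13.6%. The CCAAT letters differed little, at 38.4%, 39.2%, 38.9% and 37.4%. The CREB/ATF letters TGACGTC were in 7.14%, 7.29%, 5.43% and 3.21%, and the E-box letters CACGTG in 11.5%, 10.8%, 10.6% and 7.15%. Of the 10 sets of letters 6 hold a CG themselves, and matches of different sets may overlap. A match is a description of letters, not a site of binding.

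**Figure D2:**
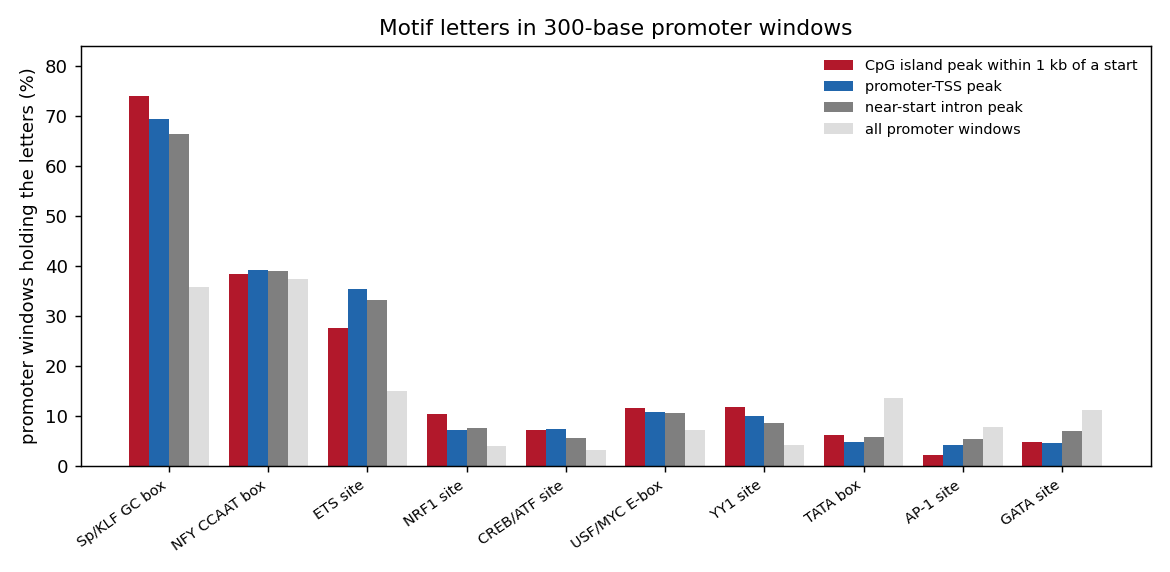
Share of 300-base RefSeq promoter windows that hold each set of letters on either strand (vertical axis, percent), for genes with a CpG island peak within 1 kb of a start, genes with a promoter-TSS peak, genes with a near-start intron peak and all windows. GGGCGG is in 74.0% of windows of the class against 35.7% of all windows, while TGANTCA is in 2.14% against 7.81%.

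The share of each library's counts that fell in CpG island peaks was slightly lower in CSE-KO. It was 11.98%, 11.96% and 12.04% in CSE-KO libraries 1 to 3 and 12.08%, 12.15% and 12.12% in WT libraries 1 to 3. The groups did not overlap, with means of 11.99% ± 0.043 in CSE-KO and 12.11% ± 0.036 in WT (SD, n = 3 each) and a difference of -0.12 percentage points. Some intervals of single libraries did overlap between groups, as at 11.96% to 12.12% for CSE-KO library 3 and 12.03% to 12.26% for WT library 2 (Wilson, 95%, counting error only). Others did not: that of CSE-KO library 1 ended at 12.036% and that of WT library 3 began at 12.037%. The shares of promoter-TSS, near-start intron, repeat and remaining peaks each overlapped between groups. The 3 CSE-KO libraries are also the 3 deepest, and the part of depth in this difference was not tested.

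The median read density of CpG island peaks showed the same small gap. It was 58.2, 58.8 and 59.0 CPM per kb in CSE-KO libraries 1 to 3 and 59.5, 60.0 and 59.7 CPM per kb in WT libraries 1 to 3. These groups did not overlap, with means of 58.7 ± 0.41 in CSE-KO and 59.7 ± 0.26 in WT (SD, n = 3 each). Promoter-TSS peaks had 58.9 ± 0.80 CPM per kb in CSE-KO and 60.0 ± 0.58 in WT, and their groups did not overlap either. The margin there was thin, at 59.41 in the highest CSE-KO library and 59.43 in the lowest WT library. Near-start intron peaks had 59.9 ± 0.91 in CSE-KO and 60.9 ± 1.90 in WT, with overlapping groups. Repeat peaks overlapped as well, with 45.3 ± 1.39 in CSE-KO and 46.0 ± 3.07 in WT. The remaining peaks went the other way, with 50.2 ± 0.38 in CSE-KO and 48.8 ± 0.47 in WT, and their groups did not overlap. Scaling to library totals removes any change shared by all peaks, so these values are relative to the rest of the library.

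**Figure D3:**
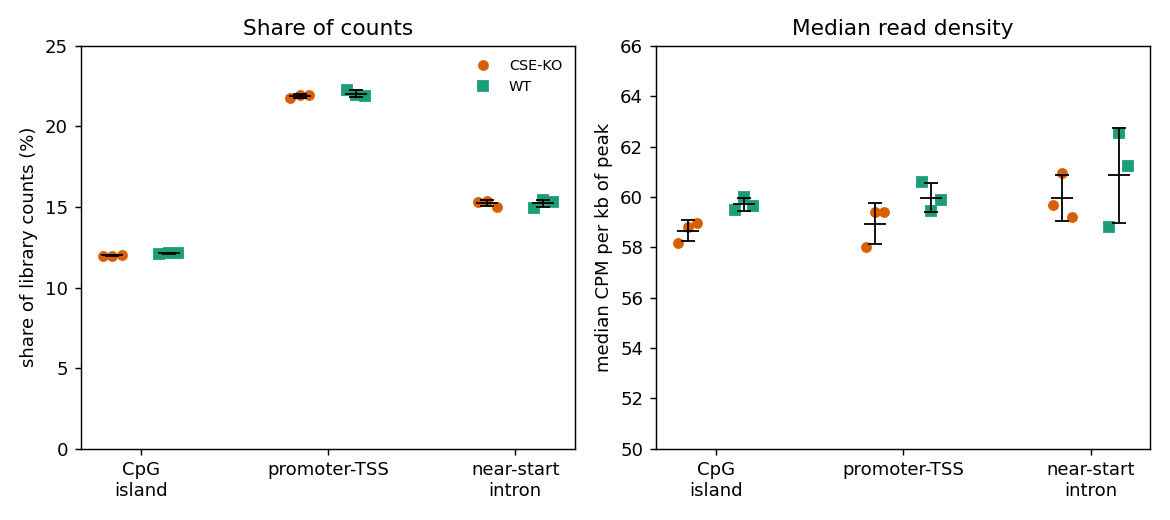
Left, share of each library's counts in percent; right, median CPM per kb of peak; both for CpG island, promoter-TSS and near-start intron peaks in CSE-KO (orange circles) and WT (green squares) libraries, with the mean and SD of 3 libraries in black. The right axis starts at 50 to show the spread: CpG island peaks sit at 58.2 to 59.0 in CSE-KO and 59.5 to 60.0 in WT.

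No single CpG island peak changed between CSE-KO and WT at the adjusted threshold. Of the 1622 peaks 1573 were tested, 49 having counts too low, and edgeR's quasi-likelihood test called 0 at an adjusted p under 0.05, where 0.0868% of all 16134 tested peaks were called. DESeq2 and limma voom called 0 as well, and the authors' deposited table gives no CpG island peak an adjusted p under 0.05, the lowest being 0.402. At an unadjusted p under 0.05, edgeR gave 78 CpG island peaks (4.96%), below the background of 7.08% of all tested peaks. DESeq2 gave 40 and voom 87. By edgeR the share was 5.36% for promoter-TSS and 5.80% for near-start intron peaks, so a low share was not particular to the class. Of the 78, 24 were higher in CSE-KO (1.53%, background 3.01%) and 54 were lower (3.43%, background 4.07%). The libraries of the groups did not overlap at 175 peaks (11.1%, background 13.0%), 66 of them higher in CSE-KO (background 6.09%) and 109 lower (background 6.90%). These shares are near or below those of all peaks and give no result about the class.

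The spread of fold changes was narrow. The log2 fold change of CSE-KO over WT had a median of -0.03 over the 1573 peaks, against -0.02 for promoter-TSS peaks and a median of all tested peaks that rounds to 0.00. It was within 0.5 of 0 for 91.4% of CpG island peaks and for 83.5% of all tested peaks. Promoter-TSS peaks (91.0%) and near-start intron peaks (90.0%) were much like the class. It was below 0 for 857 CpG island peaks (54.5%) and for 50.1% of all tested peaks. Promoter-TSS peaks had 54.0% below 0 and near-start intron peaks 50.6%. CpG island peaks were measured with more counts, a median of 43.7 per library against 32 for all tested peaks, and with a median SE of 0.26 against 0.30. The median was 0.01 in the narrowest 406 peaks, of which 357 were tested, and -0.05 in the widest 406, where 62.6% of peaks lay below 0. By density it was 0.02 in the lowest 406 and -0.04 in the highest 406.

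**Figure D4:**
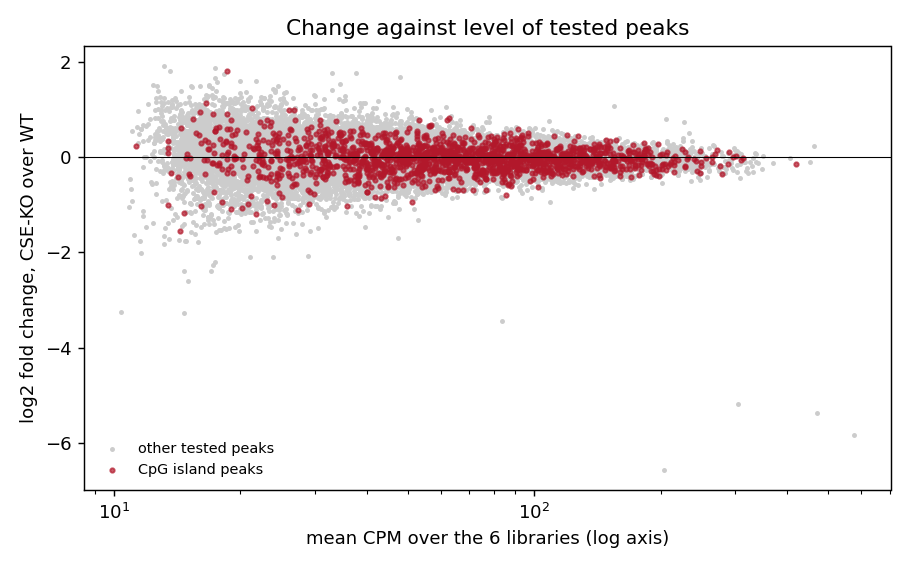
Log2 fold change of CSE-KO over WT (vertical axis) against the mean CPM over the 6 libraries (horizontal log axis) for every tested peak, with the 1573 CpG island peaks in red. The red points lie around 0 with 91.4% of them within 0.5, and the most strongly lowered grey points are not CpG island peaks.

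The peak with the lowest adjusted p lay in the first intron of Gpsm2, which orients the mitotic spindle, and is named here after its values were seen because its counts are below the naming rule (chr3:108721646-108722249). It had 26.2, 29.2 and 31.9 CPM in CSE-KO and 5.93, 6.46 and 11.5 CPM in WT libraries. All 3 CSE-KO values lay above all WT values (log2 fold change 1.80, SE 0.50; edgeR adjusted p = 0.28), and its WT libraries held 4, 2 and 7 counts. Among peaks with at least the median count, Pacs2 came first of those higher in CSE-KO (chr12:113013755-113015728). It had 81.2, 97.9 and 63.7 CPM in CSE-KO and 43.0, 35.5 and 54.3 CPM in WT libraries, which did not overlap. Its log2 fold change was 0.83 (SE 0.27; edgeR unadjusted p = 0.0031, adjusted p = 0.45).

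The next 5 peaks higher in CSE-KO had log2 fold changes of 0.46 to 0.78 and edgeR adjusted p of 0.52 to 0.67. Cant1, a calcium-activated nucleotidase, had 72.8, 70.2 and 88.3 CPM in CSE-KO and 35.6, 58.2 and 46.1 CPM in WT libraries. Ccna2, which encodes the S-phase cyclin A, had 124.4, 138.9 and 155 CPM in CSE-KO and 94.9, 93.7 and 110.3 CPM in WT libraries, at a peak 1630 bp into the gene. Smtn, a cytoskeletal protein of smooth muscle, Fastkd5, a mitochondrial RNA processing factor, and Parva, an adaptor of integrin adhesions, made up the others. None of these peaks passed the test.

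Abi1 came first of the peaks lower in CSE-KO (chr2:23039180-23040197). It had 76.2, 59.9 and 50.7 CPM in CSE-KO and 134.9, 96.9 and 95.4 CPM in WT libraries, and the groups did not overlap. Its log2 fold change was -0.80 (SE 0.23; edgeR unadjusted p = 9.4e-04, adjusted p = 0.36). Arnt, the common partner of the hypoxia-inducible factors, had 82.1, 86.3 and 72.4 CPM in CSE-KO and 126, 116.3 and 128.4 CPM in WT libraries (log2 fold change -0.63, SE 0.20; edgeR adjusted p = 0.45). Its peak (chr3:95433921-95435306) covers the start. Cops4, a subunit of the COP9 signalosome, had 71.1, 71.6 and 65.2 CPM in CSE-KO and 99.4, 113.1 and 107 CPM in WT libraries. Trp53bp1, a DNA break repair factor, Acap2, an Arf GTPase-activating protein, and Bsdc1 followed, and with Cops4 these had log2 fold changes of -0.68 to -0.59 and edgeR adjusted p of 0.56 to 0.60. All 6 sets of libraries were apart, as the naming rule required, and none passed the test.

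**Figure D5:**
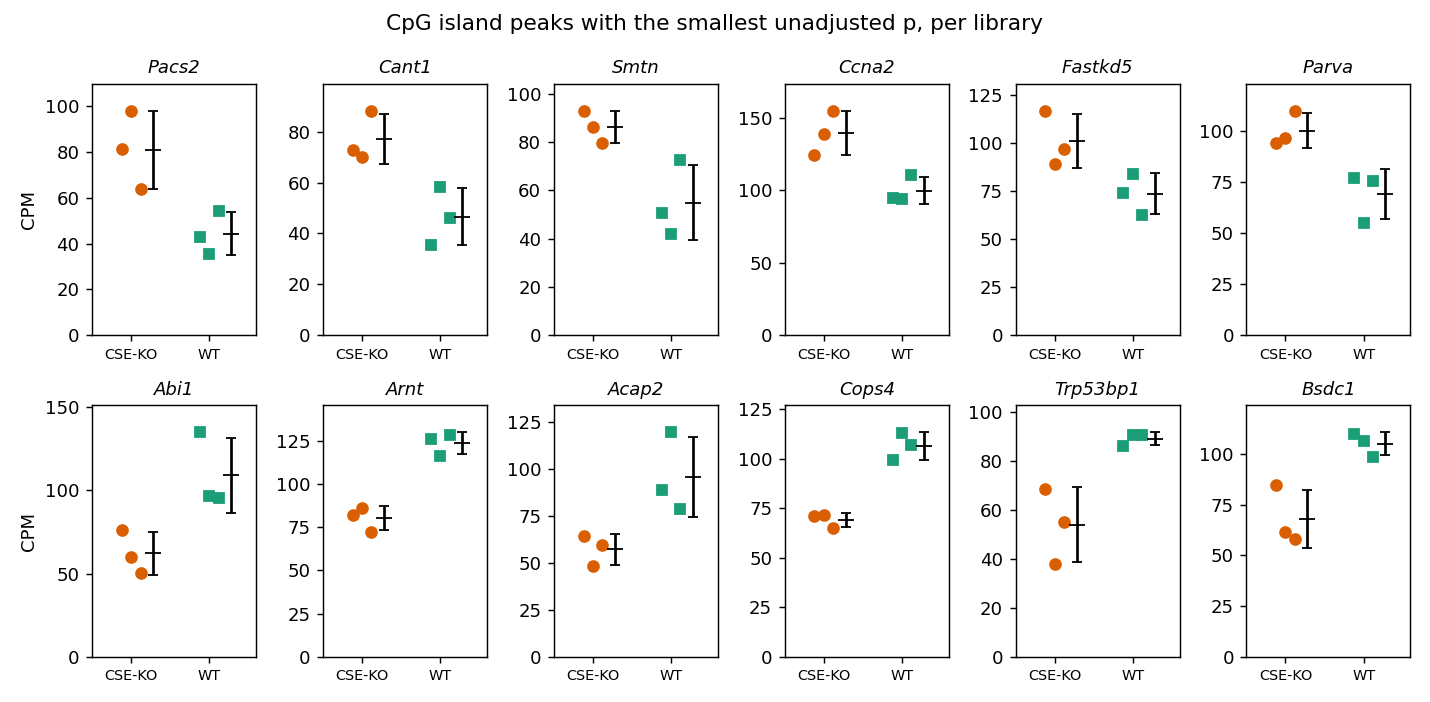
CPM per library (vertical axes, each from 0) of the 12 CpG island peaks with the smallest unadjusted p among those with at least the median count and groups that do not overlap, CSE-KO (orange circles) left of WT (green squares), with the mean and SD of 3 libraries. The upper row is higher in CSE-KO, led by Pacs2 at 63.7 to 97.9 against 35.5 to 54.3 CPM, the lower row is lower, led by Abi1 at 50.7 to 76.2 against 95.4 to 134.9 CPM, and no peak passed the adjusted threshold.

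CpG island peaks at genes of acetyl-CoA supply and histone acetylation, which stand closest to the mark itself, had 0 called peaks among 6 and 5 tested (0.0868% of all tested peaks were called). Of the 6 acetyl-CoA genes 1 had an edgeR unadjusted p under 0.05, as had 7.08% of all tested peaks, and none of the 5 acetylation genes did. It was Slc16a1 (chr3:104638242-104639614), with 52.5, 59.9 and 37.7 CPM in CSE-KO and 71.2, 80.8 and 92.2 CPM in WT libraries. The groups did not overlap, and the log2 fold change was -0.69 (SE 0.26; edgeR unadjusted p = 0.010, adjusted p = 0.60). Dld, the shared dehydrogenase subunit of the pyruvate and oxoglutarate complexes, Acly, which makes cytosolic acetyl-CoA from citrate, the thiolase Acat2 and Pdha1 had log2 fold changes of -0.31 to -0.02, and Pdhb had 0.23; Pdha1 and Pdhb are subunits of pyruvate dehydrogenase. The list median was -0.17, with 5 of 6 below 0, beside 54.5% of all CpG island peaks. The SE of these 6 values ran from 0.22 to 0.32. Among the enzymes that write and erase acetylation, Kat6a (-0.12), Kat6b (-0.09) and Ncoa3 (0.05) are acetyltransferases, and Hdac1 (-0.25) and Hdac2 (0.23) are deacetylases. The 2 deacetylases had opposite signs, and the SE of these 5 values ran from 0.21 to 0.31.

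Genes of cysteine, sulfide and redox metabolism were likewise without a call. Ethe1, the mitochondrial persulfide dioxygenase, was the one sulfide and transsulfuration gene of 19 with a CpG island peak. It had 14.4, 23.4 and 27.5 CPM in CSE-KO and 11.9, 9.69 and 18.1 CPM in WT libraries, with overlapping groups (log2 fold change 0.62, SE 0.49). Of 28 NRF2 and glutathione genes 6 had a CpG island peak, with a median log2 fold change of 0.21. Nfe2l2, which encodes NRF2, the activator of antioxidant genes, had 169.2, 194.4 and 149.2 CPM in CSE-KO and 229.8, 216.5 and 228.7 CPM in WT libraries. The groups did not overlap, and the log2 fold change was -0.40 (SE 0.15; edgeR unadjusted p = 0.011, adjusted p = 0.60). Gclc (0.27) and Gclm (0.39), the subunits of the enzyme that starts glutathione synthesis, glutathione reductase Gsr (0.18) and superoxide dismutase Sod2 (0.24) had positive log2 fold changes, and glutathione peroxidase Gpx1 had -0.06. None of these 5 had an unadjusted p under 0.05, so Nfe2l2 was the 1 of 6, beside 7.08% of all tested peaks. Of 26 genes of the ATF4 response to amino acid shortage, Slc7a5, a carrier of large neutral amino acids, had a log2 fold change of 0.34 and Vldlr, a lipoprotein receptor, one of -0.38, with SE of 0.34 and 0.42.

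Splicing, respiratory chain, ribosomal and proteasome genes had no call either, and their list medians differed in sign. An unadjusted p under 0.05 was found at 1 of 11 splicing and 1 of 2 proteasome peaks and at none of the 14 ribosomal and 13 respiratory chain and TCA cycle peaks, beside 7.08% of all tested peaks. Splicing genes lay below 0 at 10 of 11 peaks, beside 54.5% of all CpG island peaks. The median log2 fold change of the splicing peaks was -0.15 against -0.03 for all CpG island peaks, with SE of single peaks from 0.15 to 0.31. The lowest was Srsf7 at -0.56 (SE 0.22; edgeR unadjusted p = 0.014, adjusted p = 0.62), and Hnrnpu, at 0.01, was the one above 0. Respiratory chain and TCA cycle genes lay above 0 at 10 of 13 peaks, with a median of 0.16 and a range of -0.31 at Idh3a to 0.50 at Cox5b. The SE of these 13 values ran from 0.18 to 0.35, and no list was tested as a set. The 14 ribosomal protein genes had a median of -0.02, with 8 below 0 and a range of -0.20 to 0.28. The 2 proteasome genes were Psmd1, given above, and Psmc6, an ATPase of the regulatory particle. Psmc6 had 76.2, 61.4 and 71.0 CPM in CSE-KO and 99.4, 103.4 and 98.7 CPM in WT libraries, which did not overlap (log2 fold change -0.51, SE 0.22; edgeR unadjusted p = 0.024, adjusted p = 0.64). Hoxb8, the sole gene of the developmental regulator list with a CpG island peak, had a log2 fold change of -0.14 (SE 0.32).

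Some CpG island peaks far from the start they were named for lay at the start of another gene. Of 137 placed peaks more than 5 kb from their deposited start, 27 (19.7%) held a start of the RefSeq promoter table, against 122 of 8126 other peaks at that distance (1.5%). In 4 of the 27 it was another start of the gene the peak was named for, and in 23 the starts were those of other genes alone. The peak named for Zmat3 (chr3:32396279-32397991, 31470 bp upstream) holds the start of Pik3ca, the catalytic subunit of a phosphoinositide kinase, at a density of 88.4 CPM per kb. It averaged 145 ± 25.8 CPM in CSE-KO and 158 ± 26.0 CPM in WT libraries (SD, n = 3 each), a difference smaller than the spread. The peak named for Papss1 (chr3:131489565-131491125, 74423 bp upstream) holds the start of Sgms2, a sphingomyelin synthase, at 91.1 CPM per kb. The peak named for Zmiz1 (80683 bp upstream) holds the start of Zmiz1os1 at 79.9 CPM per kb. The gene in the deposited annotation is thus not always the one whose start lies in the island.

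Other far peaks held no start of that table. The densest was named for 1810026B05Rik (chr7:73617783-73619241, 60117 bp upstream), at 119 CPM per kb, with 163 ± 2.19 CPM in CSE-KO and 185 ± 28.1 CPM in WT libraries (SD, n = 3 each; log2 fold change -0.16, SE 0.16). The peak named for Bicral (chr17:46855666-46858382, 25611 bp upstream) was 2717 bp wide and averaged 278 ± 23.0 CPM in CSE-KO and 260 ± 40.9 CPM in WT libraries. Both differences were within the spread of the WT libraries. Among the 4 peaks farthest from their deposited start were those named for Fzd8, a Wnt receptor (518868 bp upstream), and 9430019J16Rik (306709 bp downstream). The others were named for 1700030C10Rik (200478 bp downstream) and Arid1b, a subunit of a chromatin remodelling complex (194816 bp downstream). The Fzd8 peak was not among the placed peaks, so whether it holds a start was not checked. Unlike the 1810026B05Rik and Bicral peaks, the 9430019J16Rik peak holds starts, those of 2600014E21Rik and Gm13652. This 1700030C10Rik peak holds a start of LOC108167368. The densities of these 4 peaks lay between 31.9 and 59.6 CPM per kb. Their log2 fold changes lay between -0.52 and 0.17, with edgeR adjusted p of 0.76 to 0.99.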

How the data were processed

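The table the authors deposited lists peaks in rows, with the raw read count of each of the 6 libraries. Its other columns, per the file headers, are normalized and RPKM values and the authors' own test, of which only the adjusted p is quoted. The submitters' processing notes name featureCounts, DESeq2 1.36.0, Picard 3.1.1, STAR 2.7.11a and Trimmomatic 0.39. No peak caller is stated there, and no input DNA was analysed here. The notes name mm39, but deposited distances fit starts of RefSeq on GRCm38.p6, so coordinates are given on GRCm38. CSE-KO and WT columns of normalized and RPKM values differ in a numeric prefix of their names; if it stands for a batch, batch and genotype cannot be told apart.

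All rows were tested together with edgeR 4.0.16 in R 4.3.3 (TMM scaling, filterByExpr at a minimum count of 10, quasi-likelihood test, two-sided, Benjamini-Hochberg adjustment over 16134 tested peaks, threshold 0.05), tested first on simulated counts. SE is the standard error of a log2 fold change. CPM uses TMM-scaled totals of the rows. DESeq2 1.42.0, limma 3.58.1 voom, other filters and scalings, a replicate block and each library left out were alternatives. Library pairs within a group differed by more than sampling noise (chi-square of 1.87 to 2.15 per degree of freedom). Deviations of same-numbered libraries correlated at 0.065, 0.014 and 0.005, so the numbers were not taken as pairs. Lists use a single CpG island peak of each gene, that with most counts. Named peaks are the 6 with the smallest p in each direction among non-overlapping peaks with at least the median count, the 6 densest, 4 widest and 4 farthest, the 2 with the highest CPM of each list and every endothelial identity gene. Far peaks that hold another start, and other members of lists, were chosen after their values were seen. Peaks, lists and rules were chosen with earlier results of these data known.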

Additional observations from a re-analysis of the deposited data

How the results depend on the processing

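CpG island peaks with an adjusted p under 0.05 numbered 0 under all 15 alternatives of the fit, with a lowest adjusted p between 0.21 and 1.00. The 78 peaks at an unadjusted p under 0.05 became 40 with DESeq2 and 36 among peaks with a mean count of 50 or more, where fewer peaks are tested, and 65 to 99 with 1 library left out. The median log2 fold change of -0.030 became -0.011 when scaled to library size alone, -0.0075 at a mean count of 50 or more, and -0.031 to -0.016 with 1 library left out. The difference in count share ran from -0.16 to -0.10 percentage points over 9 alternatives, with the groups apart in each, and from -0.15 to -0.10 with 1 library left out. It was -0.16 without MuLV-int repeat peaks, which was tried after the data had been seen. The density ratio of 1.14 to peaks outside the class became 1.10 among peaks with a mean count of 10 or more and 1.13 to 1.15 with 1 library left out. The replicate block, on numbers that do not pair the libraries, gave 0 called peaks, 79 at an unadjusted p under 0.05 and a median of -0.027; not every library correlated best with its own number. Of 15 named peaks followed through the alternatives none passed the threshold or turned its sign, with adjusted p from 0.26 to 1.00. The cause of these shifts was not tested. Depth limits single peaks: the WT library 2 held a median of 19 counts per CpG island peak and had 7 such peaks at 0. Depth and genotype cannot be told apart, since the CSE-KO libraries are the 3 deepest.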

Other observations

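Few CpG island peaks had a close neighbour. A neighbouring peak lay within 1 kb of 6 of the 1622 peaks (0.370%), against 1.39% of promoter-TSS peaks, 1.15% of near-start intron peaks and 1.34% of all peaks. The median gap to the next peak was 25278 bp, against 19170 bp over all peaks. Chromosome 4 held 130 of the CpG island peaks, the most of any chromosome, and chromosome X held 26, the fewest. These counts were not set against those of all peaks.

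Within the class, density and change are given by the letters in the promoter window. Peaks whose window held the CREB/ATF letters TGACGTC, as at Ppp2ca, had a median density of 66.4 CPM per kb (80 genes), against 59.1 for the rest. Windows with the YY1 letters ATGGCGG had 65.8 CPM per kb (131 genes), against 58.7 for the rest. Windows with the Sp/KLF letters GGGCGG had a lower median, 58.5 CPM per kb (829 genes), against 64.0 for the rest. The median log2 fold changes of CSE-KO over WT for windows with and without each of the 10 sets of letters all lay between -0.06 and 0.03. These are descriptions with no test.

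The gene named for a CpG island peak had another kind of peak in 619 of 1594 cases (38.8%). The peak named for Cd276, 14043 bp from the deposited start, holds another RefSeq start of Cd276 itself, and the same was true of peaks named for Hip1, Evi5 and Eif2ak1, which lay 56063, 6223 and 53844 bp away.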
